A study of Bos taurus with 53 samples.

Results

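Collagens are secreted or membrane-anchored proteins with stretches of triple helix, built from chains that each come from their own gene. Fibrillar collagens form the cables of interstitial matrix, type IV chains form the sheet of basement membranes, and beaded filament, anchoring fibril, fibril-associated (FACIT), transmembrane and multiplexin collagens join these structures to each other or to cells. In an early conceptus, basement membrane lies between trophectoderm and hypoblast and under the epiblast, and interstitial collagens are best known from mesoderm and its derivatives. The members described here were all features whose symbol is COL, a number, A and a number, which gave 40 genes of 24596 features on 20 chromosomes. They comprised 10 fibrillar, 6 type IV, 4 beaded filament (type VI), 3 short-chain network, 1 anchoring fibril, 8 FACIT and 4 transmembrane collagens, 2 multiplexins and 2 others, a grouping by textbook class.

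The libraries are bulk messenger RNA of bovine embryos recovered on day 14 from recipient cows, after oocyte maturation in vitro in 1 of 3 media. CONTROL medium held neither fatty acids nor solvent. BASAL medium held 28 µM stearic, 23 µM palmitic and 21 µM oleic acid, dissolved in 0.45% ethanol. HIGH PA medium differed from it by its 150 µM palmitic acid. Embryos were dissected into embryonic disc (ED), which carries the epiblast, and extraembryonic tissue (EX), and were scored by their outline as ovoid, tubular or spherical. Of the discs 12 were BASAL, 8 were HIGH PA and 3 were CONTROL, 23 in all. Of the 28 extraembryonic samples 14 were BASAL, 10 were HIGH PA and 4 were CONTROL, and 2 HIGH PA embryos were sequenced without dissection (EX+ED), for 30 embryos and 7 cows in all. Both parts were sequenced for 23 embryos. By shape the discs were 8 ovoid and 15 tubular, and the extraembryonic samples 9 ovoid, 17 tubular and 2 spherical. Sexes were uneven over the media. The BASAL, HIGH PA and CONTROL discs were 7, 7 and 3 male and 5, 1 and 0 female. Extraembryonic samples were 9, 7 and 3 male and 5, 2 and 1 female in that order, with 1 HIGH PA sample undetermined. Both undissected embryos were male. All CONTROL embryos came from 1 cow, so CONTROL holds no spread between cows.

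Exon reads per library were between 6814 and 6167850 for discs and between 9810 and 19533821 for the extraembryonic part. Values in counts per 1000000 exon reads of the library (CPM) leave out 1 library of each tissue that had fewer than 10000 reads, which leaves 22 discs, 27 extraembryonic samples and 22 pairs. Summed CPM of 5 epiblast markers lay between 99.2 and 1348 in discs and between 20.4 and 330 in extraembryonic samples. Most of that sum was DNMT3B, with medians of 527 CPM in discs and 77.8 in extraembryonic samples. SOX2, NODAL and PRDM14 had 835, 1747 and 501 disc reads and 2, 5 and 12 extraembryonic reads, and UTF1 had 570 and 1115. Summed CPM of 8 streak and mesoderm markers lay between 1.60 and 342 in discs and between 0 and 14.2 in extraembryonic samples. Summed CPM of 10 trophectoderm markers lay between 7175 and 19258 in discs and between 16352 and 30441 in extraembryonic samples. Most of that sum was KRT8 and KRT18, with disc medians of 6291 and 5957 CPM. IFNT2 had a median of 1355 CPM in discs (range 58.8 to 2994) and 2875 in extraembryonic samples, so the discs also held transcripts of trophectoderm markers. The library labelled ED BASAL replicate 12 stood apart, with SOX2, NODAL and PRDM14 at 0, 6 of 8 streak markers at 0 and trophectoderm markers at 18098 CPM. It is kept unless said otherwise. The 7 markers of vessels and stroma summed to between 0.411 and 16.8 CPM in discs (median 2.56) and between 0.322 and 20.6 in extraembryonic samples (median 1.14). Of these CDH5, CD34 and POSTN had 2, 1 and 5 reads over all discs and 0 in extraembryonic libraries. PECAM1 and LUM had more reads in extraembryonic libraries (169 and 60) than in discs (26 and 5). VWF and DCN had 75 and 31 disc reads and 23 and 25 extraembryonic reads.

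Reads of collagen genes were mostly those of 3 basement membrane chains. COL4A1, COL4A2 and COL18A1 together took between 79.2% and 96.9% of the collagen reads of a disc (median 90.0%) and between 79.7% and 97.6% in an extraembryonic sample (median 96.8%). All collagens together took between 702 and 3306 CPM in discs (median 2164) and between 345 and 2449 in extraembryonic samples (median 888). The remaining collagens summed to a median of 226 CPM in discs (range 29.2 to 686) and 29.5 in extraembryonic samples (range 18.0 to 88.2). These ranges overlap through the discs that were lowest, of which ED BASAL replicate 12 had 29.2 and ED BASAL replicate 2 had 62.5. The extraembryonic highest of 88.2 and lowest share of 79.7% were both in the spherical EX HIGH PA replicate 9, with 340016 reads. Tubular and ovoid extraembryonic samples reached at most 58.4 and 34.2 CPM of the remaining collagens. A disc held at least 1 read of between 10 and 33 collagen genes, and an extraembryonic sample of between 10 and 25, from deeper libraries.

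Levels of different genes were compared as the deposited RPKM, which are scaled by exon length. In discs COL4A1 was the highest collagen with a median of 119 RPKM, rank 607 of all features, followed by COL4A2 with 90.0, COL18A1 with 59.1 and COL23A1 with 16.4. Next came COL15A1 with 4.44 RPKM, COL4A5 with 3.93, COL2A1 with 3.11 and COL5A2 with 2.39. In extraembryonic samples the same 4 genes led, with median RPKM of 71.8 for COL4A1 (rank 1073), 40.4 for COL4A2, 26.6 for COL18A1 and 6.12 for COL23A1. There the median was 0 for COL15A1 and COL5A2, and 0.0216 RPKM for COL2A1.

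**Figure D1:**
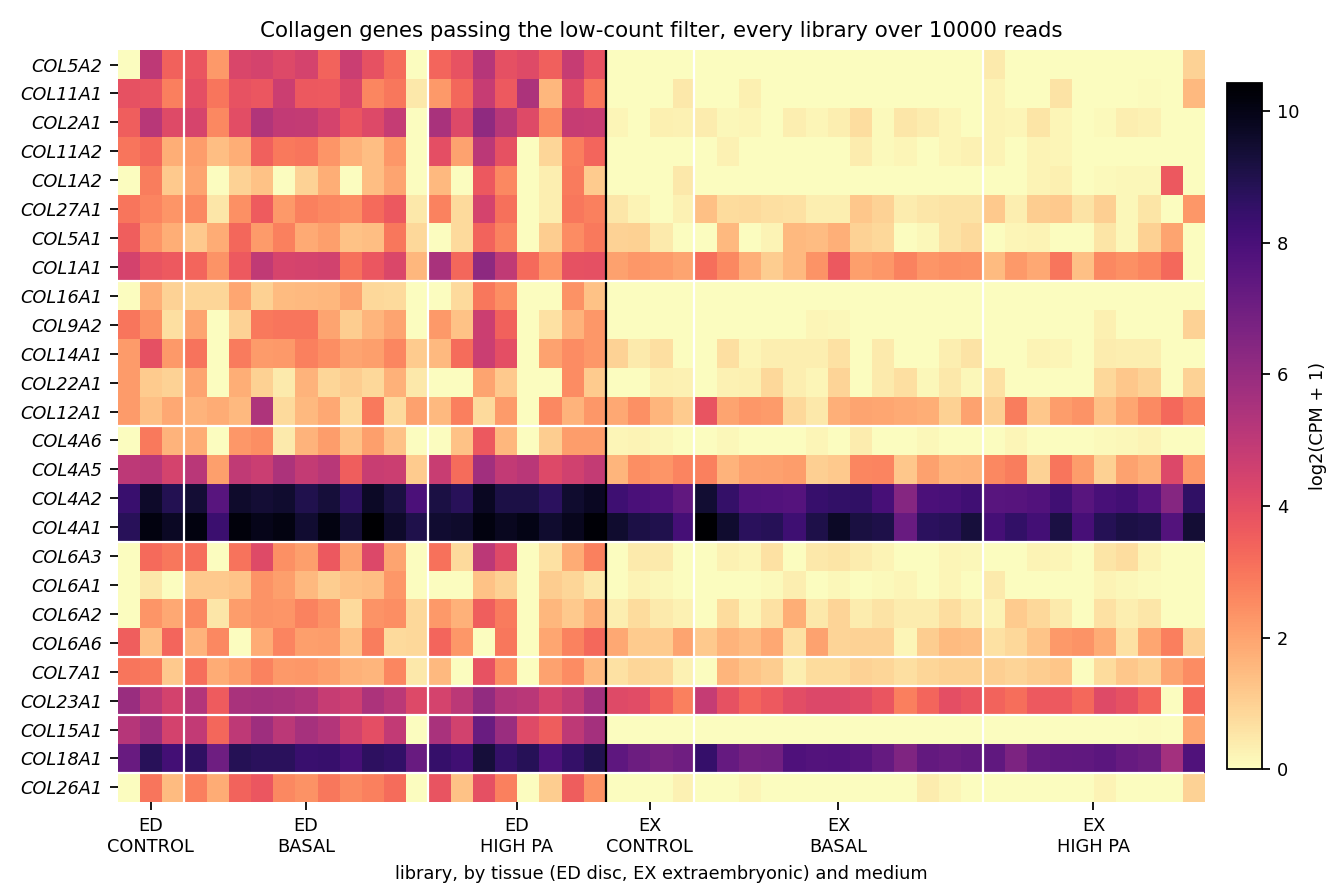
Level of the 26 collagen genes that passed the filter on low counts (rows, grouped by class with white lines) in each library over 10000 reads (columns, discs left of the black line and extraembryonic samples right of it, each by medium), as log2(CPM + 1) on the colour scale. COL4A1, COL4A2 and COL18A1 are dark in every column, whereas COL15A1, COL5A2, COL11A1 and COL2A1 are coloured in discs and near 0 in extraembryonic samples.

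Each extraembryonic part was set against its own disc, to see which collagens mark which of them. Of the 26 collagens that passed the low-count filter, 25 were lower in extraembryonic tissue and 0 were higher (edgeR's quasi-likelihood test, blocked by embryo, Benjamini-Hochberg adjusted p under 0.05 over 11921 features). Of all features tested 55.3% were called, 30.8% as lower and 24.5% as higher. The median log2 fold change was -3.21 over these collagens and -0.01 over all features. Of the 26 genes, 16 passed the filter only with disc libraries in the fit, which favours a lower call, so their count carries no weight. The 10 that also pass within extraembryonic libraries give a fairer view, with 9 called lower, 0 called higher and a median log2 fold change of -1.04, against 51.0% called and 24.0% called lower of 10803 features that pass there. Each of those 9 genes was lower by CPM in the extraembryonic part of at least 16 of 22 embryos. Such counts lack the scaling of the fits. LAMB1, DDR1 and LAMC1, with fitted log2 changes of 0.07, 0.05 and -0.08, were lower by CPM in 17, 15 and 13 embryos. A count near 16 therefore carries little weight. In these bulk samples, fewer cells of a type and less RNA per cell cannot be told apart.

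Epiblast, streak and hypoblast markers moved with the collagens. All 5 epiblast, 7 streak and 9 hypoblast markers tested were lower in extraembryonic tissue, whereas 7 of 10 trophectoderm markers were higher and 0 lower. Only 2 of those epiblast, 1 of the streak and 6 of the hypoblast markers also pass the filter within extraembryonic libraries. For the rest the filter favoured a lower call, so their count carries no weight. Their part in the collagen differences was not tested. The letter before the number in each library's column name, whose meaning the labels do not state, was A or B for all 23 discs and C or D for the extraembryonic part of the 22 pairs. Per the labels discs and extraembryonic tissue were extracted with different kits, so letter, kit and tissue cannot be told apart. Lanes and tissues largely coincided. Of the discs over 10000 reads, 10 were in lane L001, 10 in L002 and 2 in L003. Of such extraembryonic samples 2, 1 and 8 were in those lanes, and 12 and 4 in L004 and L008. With sequencing lane as a term, 7 of the 26 collagens were called, all lower, at 3.23% of all features called. That fit can hardly separate lane from tissue. Among the genes that lost their call were COL4A2 (-0.99, SE 0.48, adjusted p 0.355) and COL18A1 (-0.76, SE 0.39, adjusted p 0.398). Embryos that shared a recipient enter as separate samples, so p-values take in the spread between embryos and not that between cows.

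Of the 8 fibrillar collagens tested, COL1A1 and COL5A1 also pass the filter within extraembryonic libraries, and both were lower there than in discs. The other 6 entered through the discs, so that all 8 were called lower carries no weight and their values are a description. COL5A2, a chain of type V collagen that starts fibril assembly (ENSBTAG00000027020, chromosome 2, 7139737 to 7298551, UMD3.1), ran from 0 to 35.5 CPM in discs with a median of 13.6, and from 0 to 0.936 with a median of 0 in extraembryonic samples. In all, 798 disc reads stood against 3 extraembryonic reads, a pooled ratio of 1044-fold (95% counting interval 356 to 5074). It was lower in 20 embryos and higher in 0, and the other 2 had no read in either part. COL2A1, the fibril chain of cartilage and notochord (ENSBTAG00000013155, chromosome 5, 32450297 to 32481276), ran from 0 to 71.7 CPM in discs (median 20.1) and from 0 to 0.645 in extraembryonic samples (median 0.133). All discs but ED BASAL replicate 12, which had 0, were above every extraembryonic sample. Its log2 change was -6.53 (SE 0.27, adjusted p 6.71e-18).

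COL11A1, a partner of type II collagen in fibrils (ENSBTAG00000021217, chromosome 3, 40448698 to 40682012), ran from 0.400 to 42.0 CPM in discs (median 11.8) and from 0 to 1.87 in extraembryonic samples (median 0). Levels were lower in 22 of 22 embryos, at a log2 change of -7.37 (SE 0.34, adjusted p 7.55e-17). COL11A2, its partner chain, had a median of 3.81 CPM in discs and 0 in extraembryonic samples (log2 fold change -6.06, SE 0.40). COL1A1, the main chain of type I collagen (ENSBTAG00000013103, chromosome 19, 37088245 to 37104998), kept more of its level outside the disc. It ran from 2.00 to 72.5 CPM in discs (median 13.4) and from 0 to 12.0 in extraembryonic samples (median 3.84), so the tissues overlapped, and was lower in 20 of 22 embryos (log2 fold change -1.67, SE 0.25, adjusted p 1.92e-06). COL1A2, which joins COL1A1 in the type I helix, had 115 disc reads and 13 extraembryonic reads, 4 of the latter in the spherical EX HIGH PA replicate 9. Per exon length, pooled COL1A1 reads exceeded COL1A2 reads 7.50-fold in discs and 68.7-fold in extraembryonic samples, the latter on those 13 reads. COL5A1 and COL27A1 fell by 2.37 (SE 0.43) and 2.88 (SE 0.35) on the log2 scale.

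The type IV chains COL4A1, COL4A2 and COL4A5, which pass the filter in both tissues, were lower in extraembryonic tissue, and COL4A6 entered through the discs. COL4A5, a chain of the specialised networks encoded on the X chromosome (ENSBTAG00000014575, 61685326 to 61824307), ran from 1.20 to 51.8 CPM in discs (median 26.9) and from 0.967 to 17.6 in extraembryonic samples (median 3.16). Above every extraembryonic sample were 17 of 22 discs, and the log2 fold change was -2.75 (SE 0.23, adjusted p 3.02e-11). COL4A6, which lies 559571 bases from COL4A5, had a median of 2.07 CPM in discs and 0 in extraembryonic samples (log2 fold change -4.52, SE 0.45, adjusted p 2.48e-09). Pooled per exon length, COL4A5 exceeded COL4A6 by 9.03-fold in discs and 46.7-fold in extraembryonic samples, the latter on 13 reads of COL4A6.

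COL4A1 and COL4A2 are neighbours on chromosome 12, with 102999 bases and no annotated feature between them, and their chains assemble together into the network found in nearly all basement membranes. COL4A2 (ENSBTAG00000025210, 89112422 to 89165255) ran from 195 to 859 CPM in discs (median 577) and from 85.3 to 690 in extraembryonic samples (median 246), with 7 of 22 discs above every extraembryonic sample. It was lower in 20 of 22 embryos, at a log2 change of -0.91 (SE 0.15, adjusted p 6.10e-06). COL4A1 (ENSBTAG00000012849, 88876124 to 89009422) ran from 317 to 1378 CPM in discs (median 897) and from 146 to 1351 in extraembryonic samples (median 506). It was lower in 19 of 22 embryos, at a log2 change of -0.64 (SE 0.16, adjusted p 0.00118), and 1 disc was above every extraembryonic sample. Among ovoid embryos alone the change of COL4A2 was -0.73 (SE 0.28, adjusted p 0.0763).

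Of the 4 chains of type VI collagen, which forms beaded filaments around cells, COL6A6 passes the filter in both tissues and the others entered through the discs. COL6A3 ran from 0 to 32.5 CPM in discs (median 5.04) and from 0 to 0.656 in extraembryonic samples (median 0.121), with a log2 change of -4.56 (SE 0.42, adjusted p 2.45e-10). COL6A2 had a median of 3.53 CPM in discs (range 0 to 10.4) and 0.344 in extraembryonic samples (range 0 to 2.38), with a log2 change of -2.34 (SE 0.28). COL6A1 was scarce in both, with a median of 1.13 CPM in discs and 0 in extraembryonic samples (log2 fold change -3.53, SE 0.41). In all 3 genes the tissues overlapped through discs with no or few reads. COL6A6 had a median of 3.36 CPM in discs and 1.45 in extraembryonic samples (log2 fold change -0.89, SE 0.28, adjusted p 0.00835). It was lower by CPM in 16 of 22 embryos, a count that genes with a fitted change near 0 also reach. COL7A1, which makes the anchoring fibrils of epithelial basement membranes, had a median of 3.30 CPM in discs (range 0 to 13.3) and 0.905 in extraembryonic samples (range 0 to 4.68). Its level was lower in 19 of 22 embryos (log2 fold change -1.63, SE 0.28, adjusted p 1.08e-05). With lane as a term its change was -0.36 (SE 1.04, adjusted p 0.961).

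Of 5 FACIT collagens tested, which decorate the surface of fibrils, COL12A1 alone passes the filter in both tissues, and the other 4 entered through the discs. COL14A1 had a median of 3.75 CPM in discs (range 0 to 25.1) and 0.254 in extraembryonic samples (range 0 to 0.960), with a log2 change of -4.10 (SE 0.28, adjusted p 9.46e-13). COL9A2, a chain of the cartilage collagen type IX, had a median of 2.94 CPM in discs (range 0 to 24.4) and 0 in extraembryonic samples (range 0 to 0.936), with a log2 change of -6.13 (SE 0.48, adjusted p 1.87e-11). COL16A1 had 99 reads over 17 disc libraries and 0 in extraembryonic libraries. It was at least 130-fold higher in discs, against a floor of 3 counts over the pooled extraembryonic group.

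COL12A1 (ENSBTAG00000020056, chromosome 9, 14869510 to 14983763), a FACIT collagen of tendon and other dense tissues, was the tested collagen that was not called between tissues. It ran from 0 to 41.2 CPM in discs (median 2.29) and from 0.399 to 12.9 in extraembryonic samples (median 2.84). The groups overlapped almost wholly, and 1 disc, ED BASAL replicate 4 with 41.2 CPM, was above every extraembryonic sample. The level was lower in the extraembryonic part of 8 embryos and higher in 14. Its log2 fold change of 0.06 (SE 0.28, adjusted p 0.888) turned below 0 with DESeq2's size factors in edgeR and without the embryo block.

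The largest fitted fold change of any collagen was that of a multiplexin that entered through the discs. COL15A1, which bridges basement membrane and the fibrils beneath it (ENSBTAG00000010082, chromosome 8, 64437275 to 64540739), ran from 0 to 141 CPM in discs (median 30.8) and from 0 to 2.81 in extraembryonic samples (median 0). All discs were above every extraembryonic sample except ED BASAL replicate 12, which had 0 reads. In all, 1855 disc reads stood against 4 extraembryonic reads, 3 of them in the spherical EX HIGH PA replicate 10, a pooled ratio of 1821-fold (95% counting interval 710 to 6689). The fitted log2 fold change was -10.22 (SE 0.18, adjusted p 9.62e-27). That SE, taken from the F value, is narrower than the counting interval allows. With 4 extraembryonic reads it does not measure how closely the fold is known. COL18A1, the other multiplexin and the source of the fragment endostatin (ENSBTAG00000023907, chromosome 1, 146989243 to 147040968), ran from 128 to 634 CPM in discs (median 359) and from 50.0 to 349 in extraembryonic samples (median 154). It was lower in 20 of 22 embryos, with 13 of 22 discs above every extraembryonic sample (log2 fold change -0.87, SE 0.12, adjusted p 7.78e-07). Ovoid embryos alone gave -0.48 (SE 0.22, adjusted p 0.143).

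COL23A1, a transmembrane collagen (ENSBTAG00000013183, chromosome 7, 40675389 to 40700658), ran from 11.1 to 67.3 CPM in discs (median 33.3) and from 0 to 27.8 in extraembryonic samples (median 11.6). It was lower in 20 of 22 embryos, at a log2 change of -1.18 (SE 0.15, adjusted p 1.44e-07), and the tissues overlapped. Ovoid embryos alone gave -0.76 (SE 0.29, adjusted p 0.0778), and lane as a term -0.35 (SE 0.50, adjusted p 0.854). COL26A1, a small collagen outside the main classes that entered through the discs, had a median of 5.36 CPM in discs (range 0 to 14.1) and 0 in extraembryonic samples (range 0 to 0.936), at a log2 change of -6.26 (SE 0.41, adjusted p 9.01e-13).

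**Figure D2:**
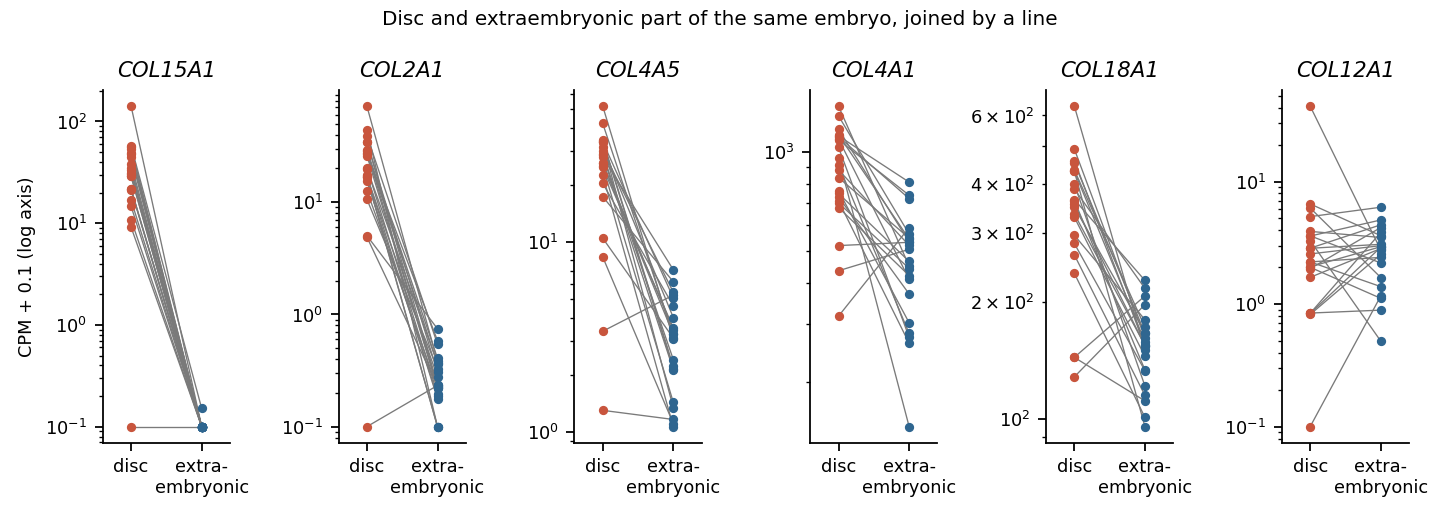
CPM + 0.1 on a log axis of 6 collagen genes in the disc (left, red) and the extraembryonic part (right, blue) of the same embryo, joined by a line, for 22 embryos. COL15A1 and COL2A1 drop to a few reads or none in all embryos but the one whose disc has 0 reads, COL4A1 and COL18A1 fall less and with exceptions, and COL12A1 lines run both ways.

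The 14 collagens that did not pass the filter had between 0 and 52 reads in all libraries together. COL10A1, COL20A1 and COL4A3 had 0 reads in every library. COL9A3 had 17 disc reads and 0 extraembryonic reads, at least 22.2-fold higher in discs against the floor of 3 pooled counts, and COL4A4 and COL25A1 had 10 and 7 disc reads and 0 extraembryonic reads (at least 13.1-fold and 9.16-fold). COL3A1, the chain of type III collagen in soft connective tissue, had 9 disc and 10 extraembryonic reads, although COL5A2, whose annotated end lies 19674 bases away, was among the higher disc collagens. COL17A1, an anchor of epithelial cells to basement membrane, had 6 reads in 3 disc libraries and 42 reads in 17 extraembryonic libraries, a pooled disc to extraembryonic ratio of 0.561 (95% counting interval 0.195 to 1.33). COL8A1 and COL13A1 had 14 and 9 disc reads and 1 extraembryonic read each, pooled ratios of 55.0 (95% counting interval 8.36 to 2324) and 35.3 (4.90 to 1549). The ratios of COL5A3, COL9A1 and COL3A1 were 3.93 (2.10 to 7.32), 9.81 (1.61 to 103) and 3.53 (1.27 to 9.68), and that of COL8A2 was 2.27 (0.977 to 5.03).

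Genes that make, fold and bind collagens were read from lists by role, and each count stands against the 30.8% lower and 24.5% higher among all features. Of 13 tested prolyl and lysyl hydroxylases and glycosyltransferases, which modify collagen in the endoplasmic reticulum, 11 were lower in extraembryonic tissue and 1 was higher. PLOD2, a lysyl hydroxylase, ran from 50.0 to 346 CPM in discs (median 227) and from 19.8 to 117 in extraembryonic samples (median 54.1), and was lower in 22 of 22 embryos (log2 fold change -1.62, SE 0.12, adjusted p 3.21e-12). P3H2, which entered through the discs, and P3H4, of the prolyl 3-hydroxylase family, fell by 4.73 (SE 0.44) and 1.92 (SE 0.20) on the log2 scale. The 1 called higher was P4HB (0.27, SE 0.08), whose CPM was lower in 12 of 22 embryos, so that its sign rests on the scaling.

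Of 9 chaperones and export factors, 4 were lower and 1 higher, and 5 of the 9 had a log2 fold change above 0, so as a list they did not lie to one side. SERPINH1, the collagen-specific chaperone HSP47, ran from 275 to 774 CPM in discs (median 583) and from 141 to 493 in extraembryonic samples (median 251), with a log2 change of -0.90 (SE 0.11, adjusted p 2.93e-08). MIA2, an export factor, changed by -2.54 (SE 0.28) and FKBP10, a chaperone, by -1.39 (SE 0.16). KLHL12, an adaptor for the large transport vesicles of procollagen, was the 1 that was higher, by 0.47 (SE 0.13).

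Of 5 propeptide processing genes 4 were lower. Among these TLL2 and PCOLCE2 entered through the discs, which favours a lower call. PCOLCE (-2.13, SE 0.24) and the protease BMP1 (-1.35, SE 0.19) pass the filter in both tissues. The 4 cross-linking enzymes tested split evenly. LOXL2, a lysyl oxidase that acts on type IV collagen, ran from 43.2 to 369 CPM in discs (median 212) and from 8.82 to 94.4 in extraembryonic samples (median 39.0), and was lower in 21 of 22 embryos (adjusted p 1.96e-10), and LOXL3 changed by -0.52 (SE 0.15). TGM2, a transglutaminase, and LOXL4 were higher, by 0.99 (SE 0.16, higher in 20 of 22 embryos) and 1.08 (SE 0.28, higher in 17).

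Of 5 collagen receptors 3 were lower and 0 higher, with the uptake receptor MRC2 at -3.44 (SE 0.22), and the integrin chains ITGA2 and ITGB1 at -1.23 (SE 0.28) and -0.50 (SE 0.14). Of 11 basement membrane partners 7 were lower, among them agrin, AGRN (-1.20, SE 0.16). The laminin chains LAMA4 (-6.02, SE 0.36) and LAMA2 (-3.54, SE 0.34) entered through the discs, which favours a lower call. The other 9 pass the filter in both tissues. The 1 called higher, nidogen 2 (NID2, 0.41, SE 0.14), was higher by CPM in 11 of 22 embryos. Of 6 interstitial partners only fibronectin (FN1) and THBS1 pass the filter in both tissues, and FN1 was called lower. The other 4 entered through the discs, which favours a lower call. Among them were BGN, FBN1 and TNC, at -5.99 (SE 0.41), -4.85 (SE 0.42) and -6.32 (SE 0.43).

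The comparison of HIGH PA with BASAL asks whether palmitic acid during oocyte maturation left a mark on collagen transcripts on day 14. In discs 0 of 24 tested collagens were called by edgeR, at 0% of 11040 features called, and DESeq2 called 0 collagens as well. At an unadjusted p under 0.05 there were 4 collagens and 1004 features. All 24 collagens had a fitted log2 fold change above 0, with a median of 0.51, against 51.0% of all features and a median of 0.01, but with recipient cow as a block 15 of 24 were above 0. Without ED BASAL replicate 12, and with DESeq2, 22 of 24 were above 0. Beside this, 5 of 5 epiblast, 5 of 6 streak and 7 of 9 hypoblast markers and 0 of 10 trophectoderm markers were above 0, and their part was not tested.

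COL11A2 had the lowest p among collagens in that comparison. It ran from 0 to 10.2 CPM in BASAL discs (median 3.38) and from 0 to 32.5 in HIGH PA discs (median 7.54). In CONTROL discs it had 7.02, 8.94 and 2.45 CPM, the first from 2 reads. The log2 fold change was 1.94 (SE 0.60, adjusted p 0.451), and the groups overlapped. COL9A2 followed with 1.73 (SE 0.72, adjusted p 0.506), although its medians of 2.92 CPM in BASAL and 2.90 in HIGH PA discs were close and the highest value, 24.4, was in HIGH PA replicate 3. COL14A1 had 1.21 (SE 0.55, adjusted p 0.528), with medians of 3.62 and 4.23 CPM. COL15A1 ran from 0 to 55.4 CPM in BASAL discs (median 29.1) and from 10.7 to 141 in HIGH PA discs (median 37.6), and had 35.1, 53.2 and 21.2 CPM in CONTROL discs, so the 3 media overlapped. COL4A1 and COL18A1 had close medians, 959 CPM in BASAL and 897 in HIGH PA discs for COL4A1 and 365 and 359 for COL18A1. The fitted change of COL4A1 was 0.13, with a 95% interval from -0.42 to 0.67, and that of COL18A1 0.31, from -0.16 to 0.79.

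In extraembryonic samples 0 of 10 collagens were called between HIGH PA and BASAL by edgeR or DESeq2 (0% of 10969 features by edgeR), 2 had an unadjusted p under 0.05, and 3 of 10 were above 0. COL5A1 was scarce, from 0 to 2.31 CPM in BASAL (median 0.716) and from 0 to 2.94 in HIGH PA samples (median 0.112), with a log2 change of -1.74 (SE 0.72, adjusted p 0.999). COL23A1 had medians of 13.9 and 9.51 CPM (-0.45, SE 0.20, adjusted p 0.999). COL4A1 had medians of 531 and 417 CPM (-0.39, SE 0.24). In each of these genes the media overlapped.

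**Figure D3:**
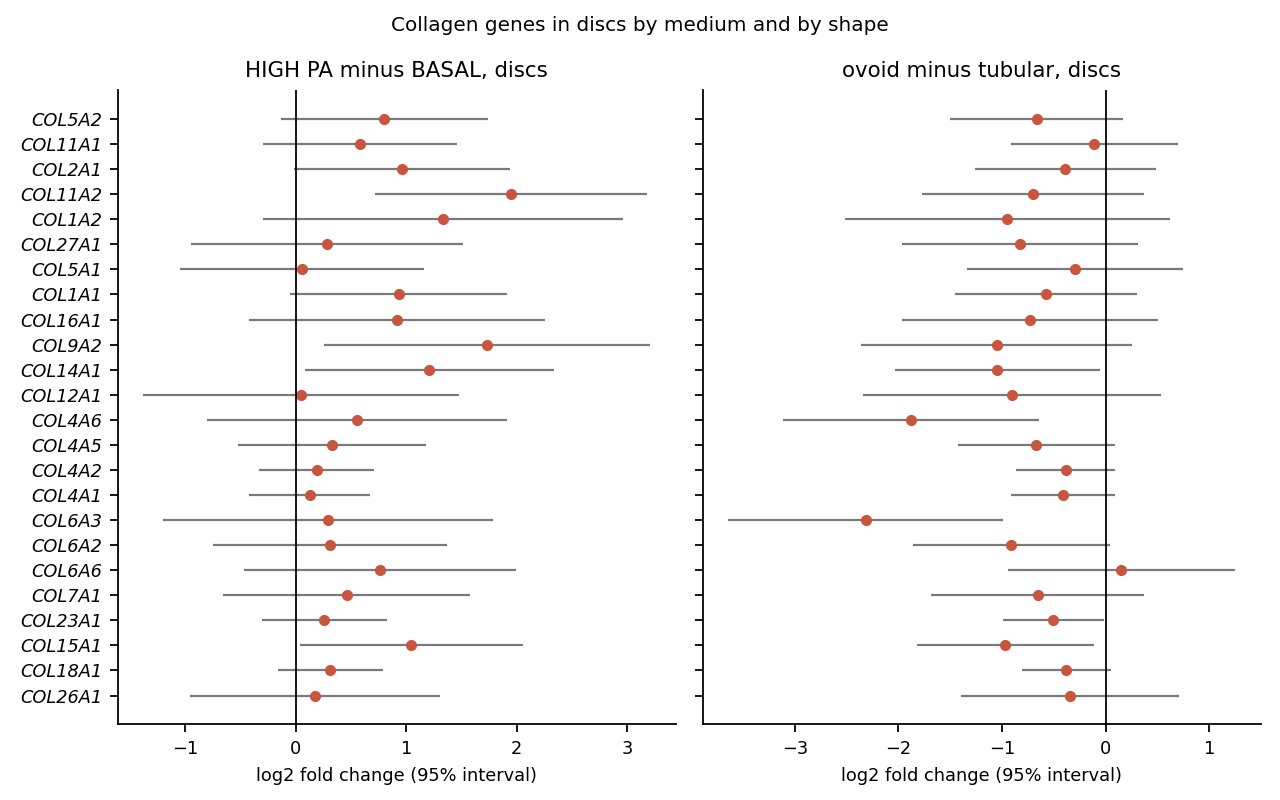
Fitted log2 fold changes of the 24 collagens tested in discs (points, with 95% intervals as lines), HIGH PA minus BASAL on the left and ovoid minus tubular on the right, from edgeR fits with sex as a term and, on the right, medium. All points lie above 0 on the left and all but that of COL6A6 below 0 on the right; with recipient cow as a block, 15 of 24 on the left and 17 of 24 on the right are above 0, and 0 collagens were called.

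Against CONTROL, which shares its samples between the next comparisons and comes from 1 cow, 0 collagens were called in either medium or tissue by edgeR or DESeq2 (0% of features by edgeR), and 0 had an unadjusted p under 0.05. BASAL discs had 8 of 24 and HIGH PA discs 19 of 24 collagens above CONTROL. The lowest p of BASAL discs were those of COL14A1 (log2 fold change -1.13, SE 0.71; CONTROL discs 3.51, 14.4 and 3.68 CPM), COL11A2 (-1.16, SE 0.81) and COL6A6 (-1.11, SE 0.78; CONTROL discs 10.5, 1.55 and 9.20 CPM). Those of HIGH PA discs were COL1A1 (0.81, SE 0.68; CONTROL discs 21.1, 12.8 and 11.4 CPM), COL18A1 (0.37, SE 0.32; 144, 435 and 282 CPM) and COL11A2 (0.79, SE 0.78). The first CONTROL value of each gene is that of ED CONTROL replicate 1, a library of 284848 reads. There COL14A1, COL6A6 and COL1A1 had 1, 3 and 6 reads. With 3 CONTROL discs, which differed among themselves by more than these changes, the contrasts are imprecise.

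In extraembryonic samples BASAL stood at 0.45 above CONTROL for COL18A1 (SE 0.22, adjusted p 0.881), where the CONTROL samples had 172, 133, 111 and 126 CPM. COL4A2 stood at 0.42 (SE 0.27), with CONTROL samples at 304, 246, 232 and 162 CPM, and COL23A1 at 0.40 (SE 0.26), with CONTROL samples at 16.6, 15.7, 9.76 and 5.64 CPM. HIGH PA against CONTROL gave 0.88 for COL7A1 (SE 0.57, adjusted p 0.589), 0.27 for COL18A1 (SE 0.23) and -0.88 for COL5A1 (SE 0.95). None of these passed the threshold.

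Between shapes, ovoid conceptuses precede tubular ones in elongation. In discs 0 of 24 collagens were called (0% of 11040 features by edgeR), DESeq2 called 16 features and 0 collagens, and 5 collagens had an unadjusted p under 0.05. Of the 24, 1 was above 0 in ovoid discs, against 5295 of 11040 features, with a median log2 fold change of -0.67, but with recipient cow as a block 17 of 24 were above 0. COL6A3 ran from 0 to 32.5 CPM in tubular discs (median 7.61) and from 0 to 7.40 in ovoid discs (median 1.64), at -2.32 (SE 0.65, adjusted p 0.372). COL4A6 ran from 0 to 11.8 CPM (median 2.89) and from 0 to 3.38 (median 0.181), at -1.88 (SE 0.60, adjusted p 0.555). COL15A1 ran from 10.7 to 141 CPM (median 36.7) and from 0 to 44.4 (median 25.4), at -0.97 (SE 0.41, adjusted p 0.664), and moved to 0.01 with cow as a block. In all 3 the shapes overlapped. Beside this, 1 of 6 streak and 1 of 9 hypoblast markers and 8 of 10 trophectoderm markers were above 0 in ovoid discs, and their part was not tested.

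In extraembryonic samples 1 of 10 collagens was called between shapes, and 12.7% of 10969 features were (6.94% as higher and 5.73% as lower in ovoid samples), so 1 of 10 is near the background. The collagen was COL12A1, which ran from 1.02 to 12.9 CPM in 16 tubular samples (median 3.02) and from 0.399 to 4.12 in 9 ovoid samples (median 1.29). Of the 9 ovoid samples 2 were below every tubular sample and 8 were below the tubular median. The log2 fold change was -1.13 (SE 0.36, adjusted p 0.0403). Values under the alternatives ran from -1.43 to -0.83, with adjusted p from 0.0180 to 0.330, and the call was lost with DESeq2 (adjusted p 0.0553) and with cow, the column name's letter, lane or the mark described next as a term.

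COL4A1, COL4A2 and COL18A1 were not called between shapes. COL4A1 ran from 146 to 1351 CPM in tubular samples (median 538) and from 262 to 589 in ovoid samples (median 302), at -0.49 (SE 0.21, adjusted p 0.107). COL4A2 had medians of 258 and 214 CPM (-0.12, SE 0.19, adjusted p 0.680), and COL18A1 of 147 and 167 CPM (0.24, SE 0.15, adjusted p 0.268). The shapes overlapped in each. In this comparison 4 of 6 hypoblast markers and 1 of 2 epiblast markers were called higher in ovoid samples, and 3 of 9 basement membrane partners were called lower. Of 10 trophectoderm markers GATA2 (0.57) and ELF5 (0.60) were called higher and PPARG (-1.32) and IFNT2 (-1.13) lower. In place of the 1390 features called here, 0 were called with cow as a block and 2 with lane as a term. The part of these markers in the COL12A1 difference was not tested. A mark "2" of unstated meaning in the column names fell on 5 ovoid, 1 tubular and 1 spherical extraembryonic library, and with it as a term 21 features and 0 collagens were called.

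**Figure D4:**
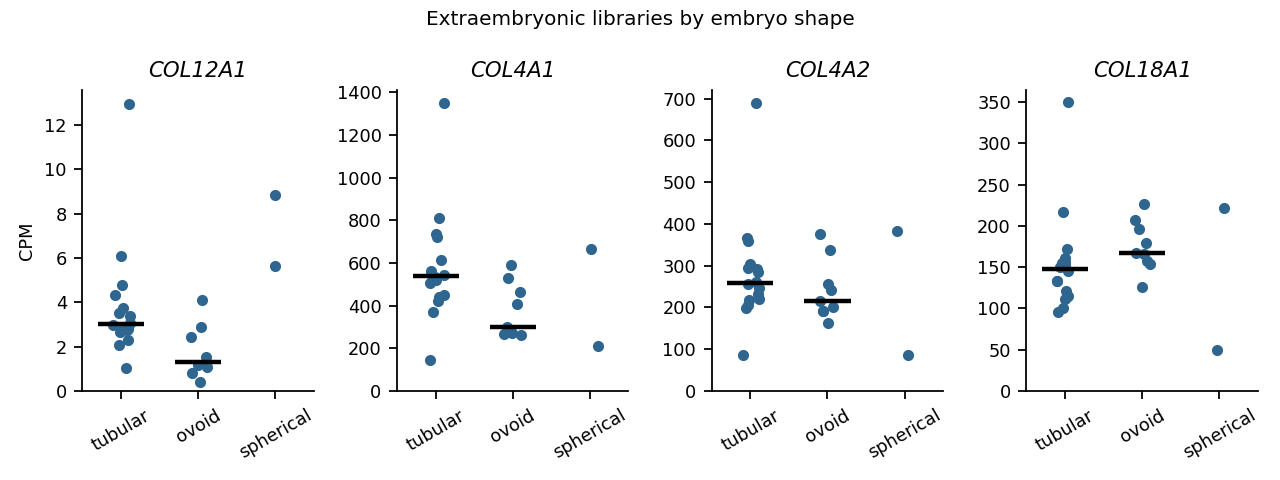
CPM of COL12A1, COL4A1, COL4A2 and COL18A1 in extraembryonic libraries over 10000 reads, by embryo shape (16 tubular, 9 ovoid, 2 spherical), each point a library and each bar the median. Ovoid COL12A1 and COL4A1 values lie mostly under the tubular median, COL4A2 and COL18A1 values are mixed, and the shapes overlap in all 4 genes.

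Since COL4A1 and COL4A2 assemble together, the ratio of their reads per exon length was taken in each library. The ratio was chosen after the values had been seen, and p-values are adjusted over 6 comparisons of this ratio alone. That adjustment does not cover the choice of this ratio. The splits by medium, cow, lane and mark reuse the same libraries and are no independent support. In tubular extraembryonic samples it ran from 1.47 to 2.18 (median 1.76), and in ovoid ones from 1.12 to 1.56 (median 1.34). Of 9 ovoid samples 8 were below every tubular sample. The mean log2 ratio was 0.81 (SD 0.15, n = 16) in tubular and 0.40 (SD 0.15, n = 9) in ovoid samples, a difference of -0.41 (exact permutation test, two-sided p 4.89e-06, adjusted p 2.94e-05). Within BASAL embryos the difference was -0.32 (4 against 9 samples, exact permutation p 0.00280) and within HIGH PA embryos -0.48 (4 against 4, exact permutation p 0.0286, the smallest possible). Within the 4 cows with both shapes, it was below 0 in each and -0.36 on average (exact permutation p 0.00139, the smallest possible). Within lane L003 it was -0.43 (5 against 3, exact permutation p 0.0357) and within lane L004 -0.22 (3 against 9, exact permutation p 0.0455), and without the 7 libraries with the mark it was -0.40 (exact permutation p 0.000516). The 2 spherical samples had ratios of 1.49 and 2.13, the latter in EX HIGH PA replicate 9 from 72 reads of COL4A1 and 29 of COL4A2.

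In discs the ratio did not separate the shapes, from 1.13 to 1.51 in tubular discs (median 1.36) and from 1.07 to 1.86 in ovoid discs (median 1.35), a log2 difference of 0.01 (exact permutation p 0.951). The extraembryonic ratio exceeded that of the same embryo's disc in 19 of 22 embryos, by 0.24 on the log2 scale on average (SD 0.30, n = 22, permutation test, two-sided p 0.00144, adjusted p 0.00288). By shape that excess was 0.40 in tubular embryos, present in 14 of 14, and -0.03 in ovoid embryos, present in 5 of 8. The difference between these, -0.43, was itself tested (exact permutation p 4.38e-05, adjusted p 0.000131), and was -0.37 without ED BASAL replicate 12. Between HIGH PA and BASAL the ratio differed by -0.08 in discs (permutation p 0.429) and -0.04 in extraembryonic samples, the spherical ones included (permutation p 0.735). The difference between shapes compares only ovoid and tubular embryos, whose extraembryonic libraries had medians of 5623850 and 8495990 reads. Ratios of other chain pairs were computed without a test. Per exon length, COL4A1 to COL18A1 ran from 1.24 to 3.90 (median 3.03) in tubular extraembryonic samples. In ovoid ones it ran from 1.09 to 2.44 (median 1.74). Its disc medians were 2.11 in tubular and 2.04 in ovoid embryos, so a shift by shape was not particular to the type IV pair.

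**Figure D5:**
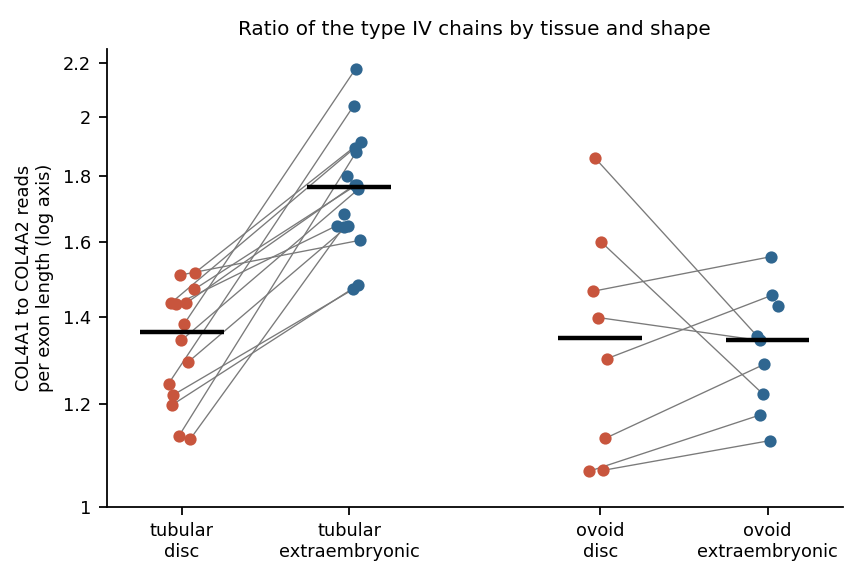
Ratio of COL4A1 to COL4A2 reads per exon length (log axis) in discs (red) and extraembryonic samples (blue) of tubular (left) and ovoid embryos (right), with medians as bars and lines joining the parts of 1 embryo. Tubular extraembryonic samples, from 1.47 to 2.18, lie above their own discs in 14 of 14 embryos, and ovoid ones do so in 5 of 8.

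The tissue difference was also tested for a dependence on medium and on shape. For HIGH PA against BASAL 0 of 26 collagens were called by edgeR or DESeq2 (0% of 11921 features by edgeR), and 2 had an unadjusted p under 0.05. The lowest p were those of COL14A1 (log2 interaction -1.99, SE 0.64), COL5A2 (1.98, SE 0.73) and COL5A1 (-2.02, SE 1.07), and that of COL5A2 moved to -0.06 with DESeq2. For ovoid against tubular 0 of 26 were called (0% of 11921 features by edgeR), 5 had an unadjusted p under 0.05, and DESeq2 called 67 features and 0 collagens. The lowest p were those of COL18A1 (0.76, SE 0.22, adjusted p 0.206), COL9A2 (2.82, SE 1.12, adjusted p 0.284) and COL23A1 (0.70, SE 0.31, adjusted p 0.316). Both COL18A1 and COL23A1 differed less between tissues in ovoid than in tubular embryos, short of the threshold.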

How the data were processed

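Messenger RNA libraries of 53 samples were prepared with a TruSeq stranded kit and sequenced as paired reads of 50 bases, per the labels' protocols. The authors deposited for each feature whole-number counts of exon reads, used for all tests, counts of uniquely placed exon reads, used as an alternative, and RPKM, used only to compare levels between genes. Other deposited columns hold fields that were not used here or that name the gene, its place and its exon length. The genome build UMD3.1 and the tool DESeq2 1.10.1 are named in the submitters' processing notes. Which aligner was run is not stated there. Among pairs of libraries 0 held identical values.

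The members, lists and tests were chosen with earlier results of these data known. Counts were tested with edgeR 4.0.16 (trimmed-mean scaling, default low-count filter, quasi-likelihood F test) across all features in R 4.3.3, with Benjamini-Hochberg adjustment and calls at an adjusted p under 0.05. Extraembryonic tissue was compared with the disc of the same embryo with embryo as a block, since both parts carry the same cow and embryo number in the labels. Media were compared within each tissue with sex as a term, shapes with medium and sex as terms, and interactions with tissue by sex terms in the blocked design. Fits with sex as a term lack the 1 extraembryonic sample whose sex is undetermined, and no fit holds the undissected embryos. Each SE is the size of the log2 fold change divided by the root of its F value. Where a tissue holds only a few reads of a gene, such an SE may understate how uncertain the fold is. Fits keep the 2 libraries under 10000 reads, which CPM ranges leave out. Pooled ratios have exact 95% intervals, and a gene at 0 is set to a floor of 3 counts per pooled group. Both cover counting error only. Named collagens are the 3 called of lowest p in each class between tissues and, where 0 were called, the 3 of lowest p in a comparison, besides up to 3 called genes of each pathway list; COL1A1, COL1A2, COL5A1, COL11A2, COL27A1, COL4A1, COL6A6, untested members and pathway genes called against their list's direction were named after their values were seen. The type IV ratio was compared with exact permutation tests, or 100000 resamples for larger groups. The scripts were tested on simulated counts. Alternatives were DESeq2 1.42.0, its size factors in edgeR, no filter, uniquely placed reads, left-out libraries, cow, the letter in the column name, sex and shape settings and, added after seeing the data, sequencing lane, the mark 2, and single media and shapes. Figures used Python 3.11.15 with matplotlib 3.10.9.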

Additional observations from a re-analysis of the deposited data

Results flagged for a closer look

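Of 44 checks of a collagen gene in a group of 4 to 10 libraries, 9 had a highest or lowest library far from the others (Dixon's test at 95%, which chance alone passes in about 1 of 20). In the library labelled ED HIGH PA replicate 3, which is tubular, 6 genes stood far above the other 7 HIGH PA discs. COL15A1 had 141 CPM, with the next disc at 57.4, and COL11A2 had 32.5 CPM, with the next at 14.8. COL9A2 had 24.4 CPM against 9.74, COL27A1 20.7 against 7.74, COL7A1 13.3 against 4.65 and COL4A6 11.8 against 3.44. These rest on 191 reads of COL15A1 and on 16 to 44 reads of each of the others.

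In the spherical EX HIGH PA replicate 9, the shallowest extraembryonic library over 10000 reads with 340016, COL23A1 was at 0 CPM with the next sample at 8.02. There COL4A5 had 17.6 CPM from 6 reads, with the next at 7.04, and COL5A1 had 2.94 CPM from 1 read, with the next at 1.02.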

How the results depend on the processing

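The count of 25 collagens lower in extraembryonic tissue was again 25 with no replicate block (embryo left out of the fit), with DESeq2, its size factors in edgeR, uniquely placed reads, without the shallow libraries and without ED BASAL replicate 12, and 32 with no filter. It was 7 with lane as a term, where lanes and tissues largely coincide. It was 5 of 6 tested in BASAL, 9 of 11 in HIGH PA and 10 of 15 in ovoid embryos, where fewer samples or genes entered, and 24 in tubular embryos. The 1 collagen called between extraembryonic shapes became 0 with DESeq2, cow, the column name's letter, BASAL embryos only, lane and the mark 2. All features called there fell from 1390 to 0 with cow as a block, 2 with lane, 21 with the mark and 497 with the letter, and rose to 4529 in males. The cause was not tested. In the other comparisons the count stayed 0 under each alternative. The type IV ratio between tissues was 0.19 on the log2 scale in HIGH PA embryos alone (exact permutation p 0.133) and 0.26 with no replicate block (permutation p 0.000280). Its extraembryonic shape difference ran from -0.42 to -0.39 as each CONTROL sample was left out. Genes under about 3 CPM rest on a few reads per disc, which limits their fold changes, and 14 members did not pass the filter.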

Other observations

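The undissected HIGH PA embryos, which enter no comparison, had summed collagen levels of 1121 and 710 CPM, with 57.6 and 33.5 from collagens other than COL4A1, COL4A2 and COL18A1. COL15A1 had 3 and 1 reads there, and COL5A2 had 1 and 0. Their COL12A1 levels were 17.8 CPM in the spherical and 2.55 CPM in the ovoid embryo.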
